A study of Mus musculus with 13 samples.

Results

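The TRAV3 family comprises the T cell receptor alpha (TCRα) chains built from the mouse V genes TRAV3-1, TRAV3D-3, TRAV3N-3, TRAV3-3 and TRAV3-4. Members were chosen by name: a clonotype was taken when its assigned V gene carried the number 3 directly after TRAV and its CDR3 translated without a stop or a frame break. This gave 4369 entries (1 clonotype in 1 sample) of 78521 functional entries. The cells were rescued Treg cells, sorted as TCRβ+CD4+GFP+Thy1.1- cells from spleen and lymph node of male C57BL/6 Foxp3LSL/y Cd4creERT2 mice, in which a STOP cassette keeps Foxp3 off until Cre removes it. Every mouse received 1 dose of 4-hydroxytamoxifen, abbreviated 4-OHT, at 14 days of age, and no untreated sample is part of the data. Samples were taken 1.5 months (n = 2, age 8 weeks), 3 months (n = 4, age 3.5 months), 5 months (n = 2, age 5.5 months) and 7 months (n = 5, age 7.5 months) after treatment. Cd4creERT2 acts in cells that express Cd4. The labels do not tie the replicates to separate animals, so p-values measure the spread between these samples.

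An alpha chain is made in the thymus when a V gene is joined to a J gene, with bases trimmed from both ends and untemplated bases inserted between them. The join encodes CDR3, the loop that lies over the presented peptide, while CDR1 and CDR2 are set by the V gene. V-to-J joining can repeat on the same chromosome, each new join taking a V gene farther upstream and a J gene farther downstream. The mouse locus contains duplicated blocks of V genes, and the letters D and N in gene names mark copies in those blocks.

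All TRAV3 genes lie on the plus strand of chromosome 14 (GRCm38, GENCODE annotation). TRAV3-1 (chr14:52580665-52581213) is the farthest from the J cluster, followed by TRAV3D-3 (chr14:52972448-52973038), TRAV3N-3 (chr14:53283585-53284175), TRAV3-3 (chr14:53665929-53666506) and TRAV3-4 (chr14:53776956-53777576). The distance from the end of the gene to the first annotated J segment, the pseudogene TRAJ61, is 1573792 bases for TRAV3-1 and 377429 bases for TRAV3-4. The annotation also lists 3 pseudogenes of the family, to which no clonotype was assigned. The last 60 bases of each annotated gene transcript are shown because they contain the germline start of CDR3 and show how little separates the genes there. Capitals mark bases that differ from TRAV3D-3.

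TRAV3-1: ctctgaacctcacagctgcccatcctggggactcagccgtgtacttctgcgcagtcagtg

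TRAV3D-3: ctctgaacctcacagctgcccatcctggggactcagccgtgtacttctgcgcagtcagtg

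TRAV3N-3: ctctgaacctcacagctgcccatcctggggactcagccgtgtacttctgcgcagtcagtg

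TRAV3-3: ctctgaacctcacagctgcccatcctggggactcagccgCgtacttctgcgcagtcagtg

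TRAV3-4: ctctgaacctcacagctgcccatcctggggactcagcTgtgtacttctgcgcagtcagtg

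The last 20 bases were identical in all 5 genes, so the germline part of CDR3 in these transcripts (13 bases) does not tell them apart. The deposited V part can reach further, to 14 bases in the largest TRAV3 clonotype at 3 months. Over the last 280 bases, TRAV3D-3 and TRAV3N-3 were identical, TRAV3-3 differed from TRAV3D-3 at 4 bases, and TRAV3-4 differed from TRAV3-1 at 6 bases. Differences between these pairs of genes were larger, at 26 to 28 bases. No entry was assigned to TRAV3N-3, and entries listed under TRAV3D-3 may come from either gene. Of 3466 distinct TRAV3 combinations of CDR3 nucleotide sequence and J gene, 207 (5.97%) were listed under 2 or more TRAV3 genes. All of these were among the 605 combinations found in 2 or more samples, of which they made up 34.2%, and 0 of the CDR3 sequences were also listed under another V family. Values for the family therefore rest on firmer assignments than values for its single genes, including the gene shares, the J use by gene and the sharing of clonotypes defined by V gene given here.

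Total counts ranged from 509818 to 936831 per sample, with 477052 to 882170 functional counts and 4828 to 7998 functional clonotypes. Sequences typical of other T cells were rare among functional counts. TRAV11 with TRAJ18, the invariant natural killer T cell pairing, reached at most 0.117% of counts, TRAV1 with TRAJ33, the pairing of mucosal-associated invariant T cells, at most 0.128%, and TRDV genes at most 0.072%. Overlap between samples was uneven. As shared TRAV3 nucleotide clonotypes over all TRAV3 clonotypes of a pair, the median of 78 pairs was 1.65%. The highest values were 6.89% for 3 months replicate 4 with 5 months replicate 1 (44 shared), 5.21% for 3 months replicate 4 with 1.5 months replicate 1 (42 shared) and 4.07% for 5 months replicate 1 with 1.5 months replicate 2 (27 shared).

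TRAV3 was a mid-sized family. It supplied 256 to 481 functional clonotypes per sample and ranked 7th among V families by its mean share of clonotypes (5.56%) and by its mean share of counts (6.65%), both taken over all 13 samples. Its share of functional TRAV clonotypes was 6.02% and 5.78% in the samples at 1.5 months, 5.24%, 5.47%, 5.19% and 5.52% at 3 months, 5.87% and 5.31% at 5 months, and 5.10%, 5.79%, 5.63%, 5.58% and 5.73% at 7 months. The samples at 3 months were all below those at 1.5 months, while the later groups overlapped with both. Relative to 1.5 months the log2 fold change was -0.15 ± 0.07 (SE) at 3 months (adjusted p = 0.408, edgeR quasi-likelihood test with Benjamini-Hochberg adjustment over 19 families), -0.08 ± 0.08 at 5 months (adjusted p = 0.889) and -0.12 ± 0.07 at 7 months (adjusted p = 0.251). Between 7 and 3 months it was 0.02 ± 0.06 (adjusted p = 0.914). TRAV3 was not called in any of these comparisons, in which 5.26% of families were called at 3 months against 1.5 months and 0% in each of the other comparisons, where 2, 3 and 1 families had an unadjusted p under 0.05 (at 5 and 7 months against 1.5 months and at 7 against 3 months).

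**Figure D1:**
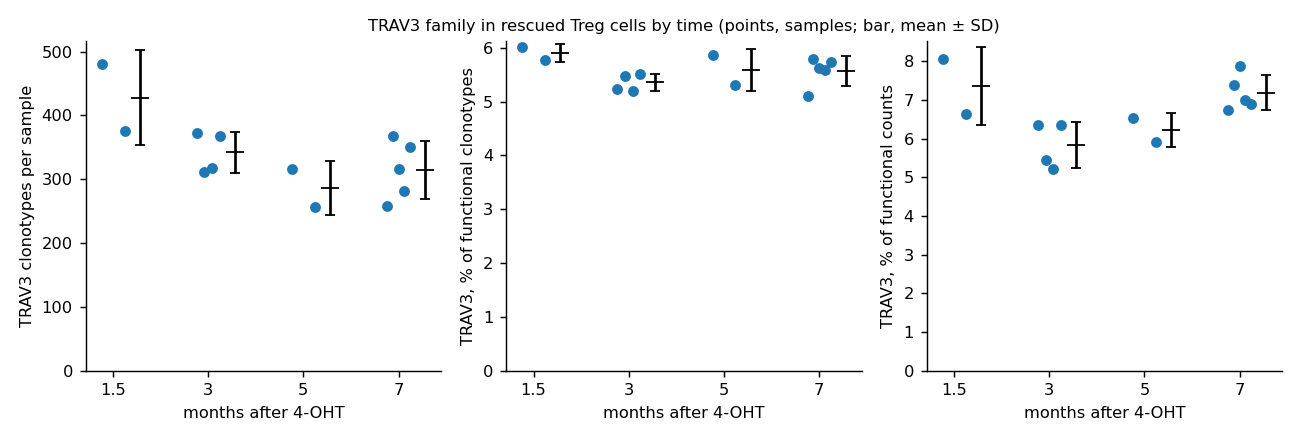
Number of functional TRAV3 clonotypes (left), TRAV3 share of functional TRAV clonotypes (middle, %) and TRAV3 share of functional TRAV counts (right, %) against months after 4-OHT. Points are samples and bars give the group mean ± SD; the share of clonotypes stayed between 5.10% and 6.02% while the share of counts at 3 months (5.21% to 6.35%) lay below all samples at 7 months (6.74% to 7.87%).

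In absolute number, TRAV3 clonotypes were fewer at the later times. There were 481 and 375 at 1.5 months, 372, 312, 317 and 367 at 3 months, 316 and 256 at 5 months, and 258, 367, 316, 281 and 351 at 7 months. Every later sample was below both samples at 1.5 months. The mean was 428 ± 75.0 (SD, n = 2) at 1.5 months, and the differences from it were -86 at 3 months, -142 at 5 months and -113.4 at 7 months (two-sided exact permutation test, adjusted for the 3 comparisons by the maximum: p = 0.133, 0.0252 and 0.0365). Over the 9 comparisons of this kind the smallest Benjamini-Hochberg adjusted p of the exact permutation test was 0.109, so no difference passed with all clonotypes counted. Among clonotypes of at least 2 counts the differences were -71.75, -126 and -100.5 (p = 0.0140, 0.000577 and 0.000888, exact permutation test adjusted for the 3 comparisons). Lower numbers were not particular to TRAV3. Functional clonotypes of all V families numbered 7998 and 6497 at 1.5 months and 4828 to 7109 later. Their mean was 7247.5 at 1.5 months, 6398.75 at 3 months, 5108 at 5 months and 5643 at 7 months. The TRAV3 means at these times were 428, 342, 286 and 314.6, and the family's share of clonotypes was not called. The part of the general decrease in the TRAV3 numbers was not tested. With 1.5 months replicate 1 left out the difference was -33 at 3 months (p = 0.762, exact permutation test), -89 at 5 months (p = 0.193) and -60.4 at 7 months (p = 0.415).

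The share of functional counts held by TRAV3 averaged 7.36% ± 1.00 (SD, n = 2) at 1.5 months, 5.84% ± 0.60 (n = 4) at 3 months, 6.22% ± 0.44 (n = 2) at 5 months and 7.18% ± 0.45 (n = 5) at 7 months. The difference from 1.5 months was -1.51 percentage points at 3 months (p = 0.0361, exact permutation test), -1.14 at 5 months and -0.17 at 7 months (p = 0.173 and 0.952, exact permutation test), and the first came to an adjusted p of 0.109 over the 9 comparisons. The difference at 3 months was -0.80 (p = 0.348, exact permutation test) without 1.5 months replicate 1, in which the largest TRAV3 clonotype of that time point was found, and p was 0.0502 to 0.0789 without 3 months replicate 2 or 3 or 7 months replicate 2 or 4. At 5 months it was -1.85 (p = 0.0217, exact permutation test) without 1.5 months replicate 2. Diversity within TRAV3, as the inverse Simpson index (an effective number of clonotypes, low where a few dominate), ranged from 11.1 to 143 across samples. Its differences from 1.5 months were -3.58, -2.83 and -31.8 (p = 1.000, 1.000 and 0.759, exact permutation test). The samples at 1.5 months were themselves at 19.1 and 128, and without 1.5 months replicate 2 the differences were 50.9, 51.6 and 22.6, each in the other direction (p = 0.394, 0.443 and 0.900, exact permutation test).

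No trend over the months passed among the 7 measures tested. The share of TRAV3 counts held by its 10 largest clonotypes had Pearson's r = 0.51 (p = 0.0794, adjusted p = 0.451) and Spearman's rho = 0.48 (p = 0.0990, adjusted p = 0.347) over 13 samples (permutation test). Mean inserted bases had r = 0.44 (p = 0.129, adjusted p = 0.451) and rho = 0.67 (p = 0.0160, adjusted p = 0.112, permutation test), with r = 0.45 once the 2 samples at 1.5 months, the farthest from the median time, were left out. For the share of functional counts r was 0.31 (p = 0.304, adjusted p = 0.488) and rho 0.37 (p = 0.209, adjusted p = 0.488, permutation test), and r was 0.80 (p = 0.00301, permutation test) without the same 2 samples. The last p is not adjusted, and the difference between these correlations was not tested. By edgeR on summed counts, the log2 fold change of the family between 7 and 3 months was 0.27 (adjusted p = 0.182).

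Within the family, TRAV3D-3 supplied 2197 entries, TRAV3-3 1474, TRAV3-1 515 and TRAV3-4 183. This order of clonotype shares held in every sample. TRAV3D-3 took 46.2% to 54.3% of a sample's TRAV3 clonotypes, TRAV3-3 27.7% to 40%, TRAV3-1 7.83% to 14.5% and TRAV3-4 2.08% to 5.70%. By counts the order was not fixed. TRAV3-1 ranged from 4.99% to 42.4% of TRAV3 counts, TRAV3-3 from 21.7% to 53.4%, TRAV3D-3 from 31.9% to 58.8% and TRAV3-4 from 2.45% to 20.1%. The highest TRAV3-1 value was in 7 months replicate 3, where 1 clonotype held 29.0% of TRAV3 counts, and the highest TRAV3-4 value was in 3 months replicate 4, where 1 clonotype held 16.2%.

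**Figure D2:**
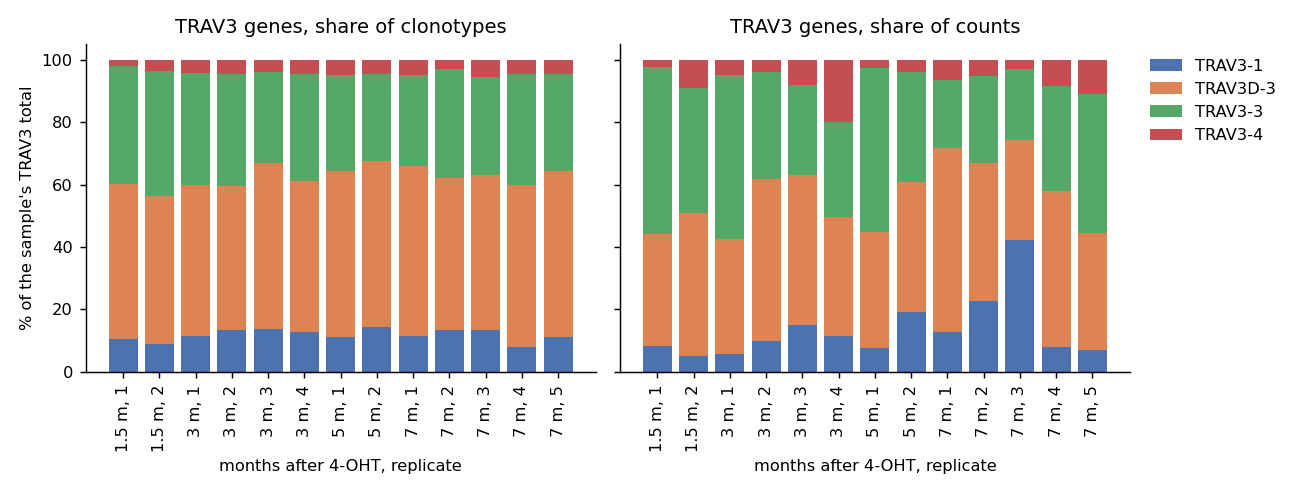
Share of each sample's TRAV3 clonotypes (left, %) and TRAV3 counts (right, %) taken by TRAV3-1, TRAV3D-3, TRAV3-3 and TRAV3-4, samples ordered by months after 4-OHT. TRAV3D-3 is the largest part of the clonotypes in each sample (46.2% to 54.3%), whereas TRAV3-1 reaches 42.4% of counts in 7 months replicate 3.

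None of the TRAV3 genes was called between time points, in comparisons where 0% of 90 single V genes were called and 10, 8 and 6 had an unadjusted p under 0.05 at 3, 5 and 7 months against 1.5 months, and 1 at 7 against 3 months. DESeq2 also called 0 TRAV3 genes. TRAV3-3 had the lowest unadjusted p of the TRAV3 genes in each comparison with 1.5 months and is described first, a choice made after the values were seen. Among functional TRAV clonotypes its share was 2.29% ± 0.02 (SD, n = 2) at 1.5 months, 1.81% ± 0.21 (n = 4) at 3 months, 1.64% ± 0.23 (n = 2) at 5 months and 1.81% ± 0.21 (n = 5) at 7 months. The log2 fold changes against 1.5 months were -0.36 ± 0.13 (SE, adjusted p = 0.206), -0.50 ± 0.16 (adjusted p = 0.137) and -0.37 ± 0.13 (adjusted p = 0.178) by edgeR, with unadjusted p of 0.0101, 0.00457 and 0.00781. TRAV3-4 had larger log2 fold changes in the other direction, with larger errors: 0.47 ± 0.40 (SE, adjusted p = 0.811), 0.69 ± 0.47 (adjusted p = 0.744) and 0.57 ± 0.39 (adjusted p = 0.705, edgeR). For TRAV3-1 they were 0.22 ± 0.24, 0.26 ± 0.28 and 0.11 ± 0.23 (adjusted p = 0.857, 0.934 and 0.961, edgeR), and for TRAV3D-3 -0.15 ± 0.10, 0.04 ± 0.12 and -0.02 ± 0.10 (adjusted p = 0.767, 0.953 and 0.961, edgeR). These comparisons share the 2 samples at 1.5 months.

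J partners differed between the gene nearest the J cluster and the farthest, the only pair tested. J genes were grouped by position, with TRAJ41 and above as the 5′ part (nearest the V genes), TRAJ40 to TRAJ21 as the middle and TRAJ20 and below as the 3′ part. TRAV3-4, the gene nearest the J cluster, used the 5′ part in 71.95% ± 10.6 (SD, n = 13) of its clonotypes and the 3′ part in 6.47% ± 9.21. TRAV3-3 used the 5′ part in 38.0% ± 6.55 and the 3′ part in 8.08% ± 3.83. TRAV3D-3 used the 5′ part in 3.33% ± 1.69 and the 3′ part in 53.0% ± 5.36, and TRAV3-1, the farthest gene, in 2.09% ± 2.71 and 46.4% ± 7.35. TRAV3-4 was above TRAV3-1 in use of the 5′ part in 13 of 13 samples, by 69.9 percentage points ± 10.8 (SD of the differences). It was below TRAV3-1 in 13 of 13 samples for the middle part (by -29.9 ± 15.2) and for the 3′ part (by -39.9 ± 13.2). Each difference had p = 0.000244 in a two-sided exact sign-flip permutation test, the smallest p that 13 samples allow, and the same adjusted p over 3 tests. The number of clonotypes behind TRAV3-4 was 10 to 18 per sample, which limits its percentages.

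**Figure D3:**
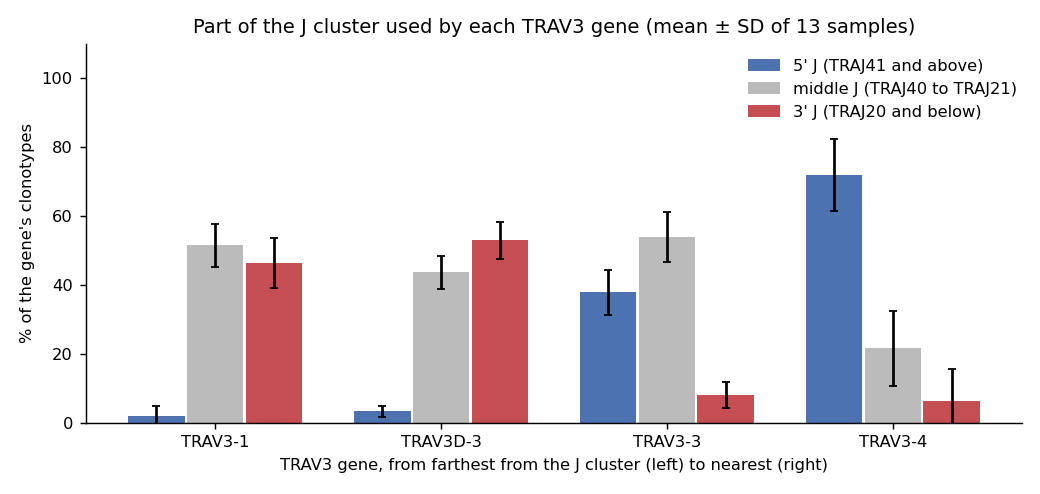
Percent of each TRAV3 gene's clonotypes that use the 5′, middle or 3′ part of the J cluster, as mean ± SD of 13 samples, genes ordered from farthest to nearest to the J cluster. The 5′ part rises from 2.09% in TRAV3-1 to 71.95% in TRAV3-4, and the 3′ part is above 46% only in TRAV3-1 and TRAV3D-3.

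For the family as a whole, J use was compared with that of all other TRAV clonotypes of the same sample. In this comparison 5 of 43 J genes were used more with TRAV3 (11.6%) and 5 were used less (11.6%; edgeR with sample as a block, adjusted p under 0.05). DESeq2 called 4 higher and 5 lower, and with counts summed in place of clonotypes numbered only TRAJ7 was called higher and TRAJ58 lower. The J genes with the most TRAV3 clonotypes were TRAJ23 (240 entries), TRAJ15 (222), TRAJ13 (205), TRAJ21 (202) and TRAJ12 (201). Of these only TRAJ23 was called. TRAJ23 took 5.47% ± 0.86 (SD, n = 13) of TRAV3 clonotypes against 4.47% ± 0.29 of the others and was higher in 11 of 13 samples (log2 fold change 0.29 ± 0.10 SE, adjusted p = 0.0276 by edgeR).

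Among the J genes used more, TRAJ7 had the largest difference. It took 3.11% ± 0.95 (SD, n = 13; lowest sample 1.28%, highest 4.65%) of TRAV3 clonotypes against 1.60% ± 0.15 of the others and was higher in 12 of 13 samples (log2 fold change 0.94 ± 0.15 SE, adjusted p = 1.17e-05, edgeR). TRAJ5 took 1.41% against 0.819% (0.79 ± 0.22, adjusted p = 0.00702, edgeR), TRAJ45 1.25% against 0.762% (0.71 ± 0.21, adjusted p = 0.00750, edgeR) and TRAJ40 3.99% against 3.10% (0.38 ± 0.13, adjusted p = 0.0218, edgeR). As a share of each gene's own entries, TRAJ7 took 4.82% in TRAV3D-3, 3.50% in TRAV3-1, 0.678% in TRAV3-3 and 0.546% in TRAV3-4, and TRAJ5 took 2.23%, 1.75%, 0.339% and 0%. TRAJ45 took 3.12% in TRAV3-3, 1.64% in TRAV3-4, 0.273% in TRAV3D-3 and 0% in TRAV3-1, and TRAJ40 took 8.14%, 8.20%, 1.50% and 1.94%. Differences between TRAV3 genes in single J genes were not tested. The calls for TRAJ40 and TRAJ23 did not pass in 5 and 7 of 13 fits that each left out 1 sample, with log2 fold changes of 0.29 to 0.44 and 0.22 to 0.33. The TRAJ40 call was also lost with DESeq2 (0.36, adjusted p = 0.0926), and that of TRAJ23 by edgeR once clonotypes held by another sample at 100 times the share were dropped (0.25, adjusted p = 0.0836). With summed counts the log2 fold changes by edgeR were 0.21 for TRAJ5 (adjusted p = 0.922), 0.24 for TRAJ45 (0.910), 0.43 for TRAJ40 (0.532) and 0.70 for TRAJ23 (0.190).

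The J genes used less were led by those at the 5′ end of the cluster. TRAJ58 occurred in 5 TRAV3 entries, 4 of them with TRAV3-4, and in none in 8 of 13 samples. Its share was 0.117% ± 0.16 (SD, n = 13) of TRAV3 clonotypes against 0.879% ± 0.14 of the others, lower in 13 of 13 samples (log2 fold change -2.91 ± 0.43 SE, adjusted p = 2.37e-06, edgeR). TRAJ57 took 0.577% against 1.55% and was lower in 13 of 13 samples (-1.49 ± 0.32, adjusted p = 0.000522, edgeR), and 14 of its 24 entries were with TRAV3-4. TRAJ34 (-0.55 ± 0.13), TRAJ22 (-0.49 ± 0.12) and TRAJ31 (-0.46 ± 0.13) were each lower in 11 or 12 of 13 samples (adjusted p = 0.00131, 0.00266 and 0.00702, edgeR). With summed counts TRAJ58 was at -7.38 (adjusted p = 0.00266, edgeR), a value that rests on 5 entries, TRAJ57 was at -3.02 (adjusted p = 0.0575, edgeR), and the adjusted p of TRAJ34, TRAJ22 and TRAJ31 was 0.227, 0.532 and 0.168. By part of the cluster, TRAV3 used 3′ J genes in 35.3% ± 3.71 of clonotypes against 31.2% ± 1.10 (higher in 11 of 13 samples, adjusted p = 0.0127, exact sign-flip permutation test) and middle J genes in 47.1% ± 3.09 against 49.8% ± 0.80 (lower in 10 of 13, adjusted p = 0.0373, exact sign-flip permutation test). The 5′ part as a whole did not pass, at 17.5% ± 2.40 against 18.9% ± 0.80 (lower in 9 of 13, adjusted p = 0.159, exact sign-flip permutation test). Its difference of -1.39 percentage points was -1.98 with non-functional clonotypes kept (adjusted p = 0.0229) and -1.82 without 3 months replicate 3 (adjusted p = 0.0381, exact sign-flip permutation test). Weighted by counts the 3′ difference was 2.86 percentage points and did not pass (adjusted p = 0.758, exact sign-flip permutation test). The middle J difference did not pass in 8 of 13 tests that left out 1 sample, where it ranged from -3.11 to -2.24 percentage points, nor among clonotypes of at least 2 counts (-2.34, adjusted p = 0.0711) or 10 counts (-1.94, adjusted p = 0.173), nor weighted by counts (-1.79, adjusted p = 0.758, exact sign-flip permutation test).

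**Figure D4:**
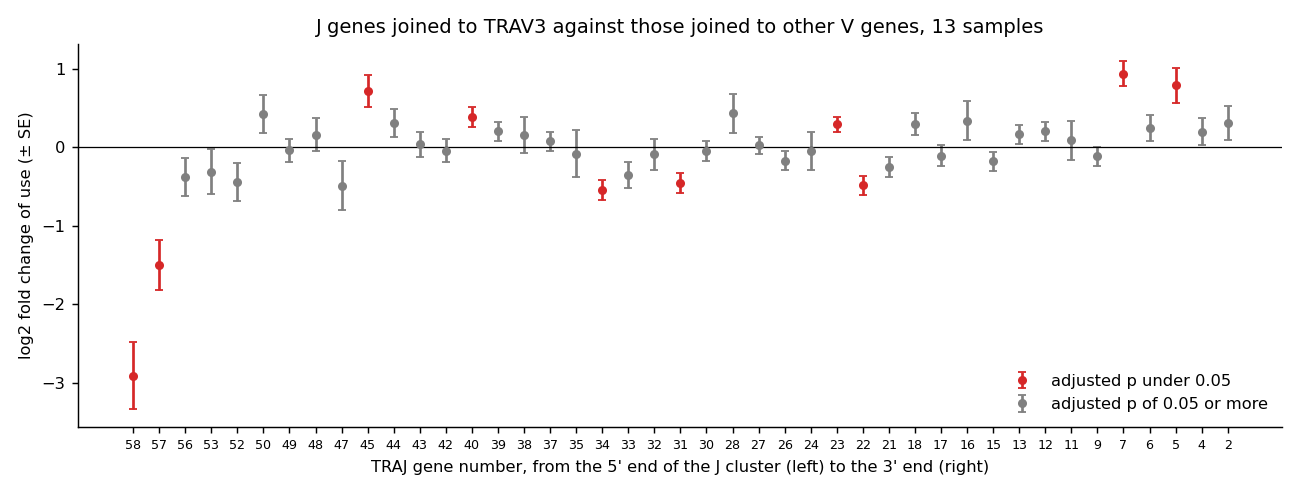
log2 fold change (± SE, edgeR, 13 samples) of the share of clonotypes using each of 43 J genes, TRAV3 over other TRAV families, in the order of the J genes on the chromosome. Red points passed an adjusted p of 0.05; TRAJ58 (-2.91) and TRAJ57 (-1.49) at the 5′ end are the lowest and TRAJ7 (0.94) and TRAJ5 (0.79) near the 3′ end the highest.

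CDR3 loops of TRAV3 were more positively charged than those of the other families pooled. The measure includes the start of the loop, encoded by the V gene that the choice of members fixes. Of TRAV3 entries, 90.8% started with the first 9 germline bases. Net charge, the number of lysine and arginine residues less that of aspartate and glutamate, averaged 0.876 ± 0.061 (SD, n = 13) per TRAV3 CDR3 against 0.703 ± 0.012, and was higher in 13 of 13 samples, with no overlap between the sample means (lowest TRAV3 sample 0.752, highest other 0.723; adjusted p = 0.00317 over 13 CDR3 measures, two-sided exact sign-flip permutation test). TRAV3 ranked 4th of the 12 families with at least 50 clonotypes in every sample, the highest being TRAV10 at 1.02 and the lowest TRAV4 at 0.133. The germline codon at position 4 (counted from the conserved cysteine) is agt, serine, and 58.3% of TRAV3 entries kept serine there. Arginine followed with 737 entries (16.9%), of which 700 (94.98%) had a codon starting with the germline bases ag, against 93.3% of the arginine codons there in other families. Arginine at position 4 was found in 17.0% ± 2.36 (SD, n = 13) of TRAV3 clonotypes per sample against 13.3% ± 0.45, and was higher in 13 of 13 samples. Acidic residues were fewer there: over all entries, glutamate stood at position 4 in 1.08% of TRAV3 against 9.48% of other CDR3 sequences and aspartate in 0.984% against 4.06%, shares that were not tested. Without the first 4 residues the net charge was 0.706 ± 0.046 against 0.688 ± 0.009 and higher in 9 of 13 samples (p = 0.198, exact sign-flip permutation test). These measures at the start of the loop were chosen after the charge difference was seen.

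Short loops were rarer among clonotypes. Length depends in part on the germline V end, which the choice of members by V gene fixes. The tests of length that follow therefore cannot separate the rest of the loop from that end. CDR3 sequences of 11 residues or fewer made up 4.14% ± 1.10 (SD, n = 13) of TRAV3 clonotypes against 5.53% ± 0.47, lower in 12 of 13 samples (adjusted p = 0.00317, exact sign-flip permutation test). Weighted by counts the difference was -1.43 percentage points and did not pass (adjusted p = 0.130, exact sign-flip permutation test). By clonotypes TRAV3 ranked 10th from the highest of the 12 families with at least 50 clonotypes in every sample. The highest was TRAV13 at 10.5% and the lowest TRAV16 at 1.14%. Lengths of 13 and 14 residues made up 34.1% and 32.6% of TRAV3 clonotypes on average. Mean length was 13.55 ± 0.09 against 13.49 ± 0.02 residues (adjusted p = 0.0965, exact sign-flip permutation test). This difference passed among clonotypes of at least 2 counts (0.0595, adjusted p = 0.0484) or 10 counts (0.0704, 0.0159), with 1-base neighbours of larger clonotypes removed (0.0597, 0.0311), and without 7 months replicate 1 (0.0669, 0.0279) or replicate 4 (0.0635, 0.0495, exact sign-flip permutation test). Inserted bases averaged 2.10 ± 0.11 against 2.16 ± 0.05 (adjusted p = 0.178), and 32.3% ± 3.23 of TRAV3 clonotypes had 0 inserted bases against 30.8% ± 1.00 (adjusted p = 0.184, exact sign-flip permutation test). The difference in the latter was 1.45 percentage points ± 3.32 (SD), and with 7 months replicate 1 left out it was 2.24 (adjusted p = 0.00846, exact sign-flip permutation test). The share of hydrophobic pairs at positions 6 and 7 (2.48% against 2.78%, adjusted p = 0.417) and of internal cysteines (1.17% against 1.07%, adjusted p = 0.579, exact sign-flip permutation test), residues that have been linked to self-reactivity, did not pass.

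TRAV3 clonotypes were larger than those of the other families pooled, and in bulk RNA more cells of a clone and more TCRα RNA per cell cannot be told apart. The share of counts exceeded the share of clonotypes by a log2 ratio of 0.25 ± 0.15 (SD, n = 13) for TRAV3 against -0.02 ± 0.01 for the others, a difference of 0.27 seen in 12 of 13 samples (adjusted p = 0.000732 over 3 measures, exact sign-flip permutation test). TRAV3 ranked 2nd of the 12 families with at least 50 clonotypes in every sample, after TRAV4 at 0.27, and the lowest was TRAV9 at -1.91; the smaller families TRAV15 and TRAV21 were at 0.42 and 0.30. The median counts per clonotype were also 1.21-fold higher, in 12 of 13 samples with the remaining sample at no difference (adjusted p = 0.000732, exact sign-flip permutation test). Clonotypes above 0.1% of functional counts were 2.21% ± 1.16 of TRAV3 clonotypes and 1.59% ± 0.48 of the others, higher in 9 of 13 samples (adjusted p = 0.0171, exact sign-flip permutation test). With the largest clonotype of each side removed, the last difference was 0.34 percentage points (adjusted p = 0.140, exact sign-flip permutation test). For TRAV3 that clonotype was above 0.1% in every sample (lowest 0.136%), and its removal weighs more on the smaller set. This check therefore cannot decide whether the difference holds.

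**Figure D5:**
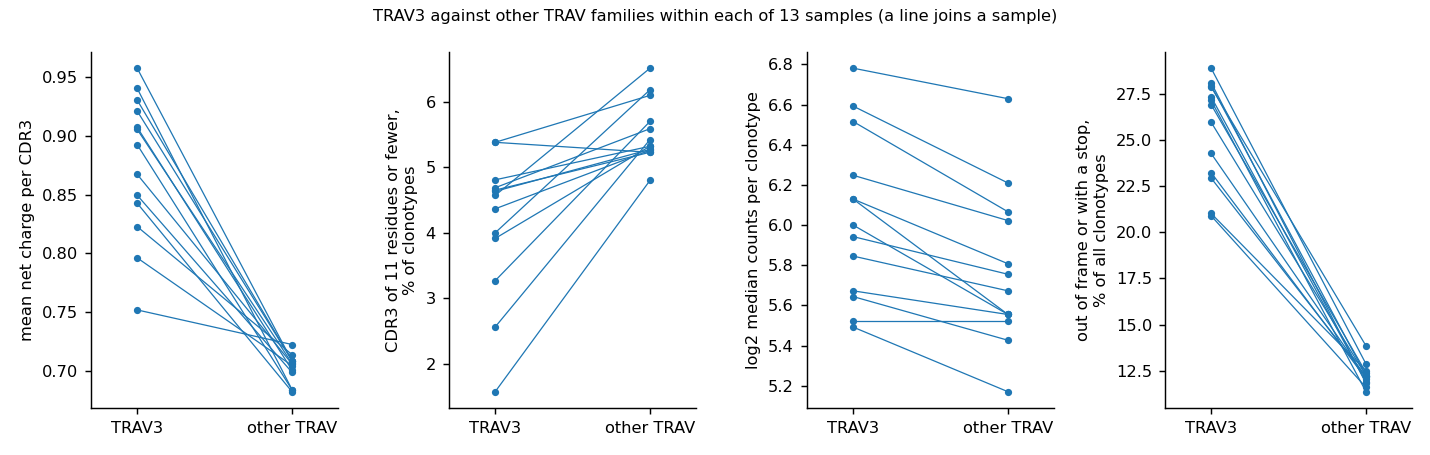
TRAV3 against other TRAV families within each of 13 samples (a line joins the values of a sample) for mean net charge per CDR3, percent of clonotypes with a CDR3 of 11 residues or fewer, log2 median counts per clonotype, and percent of all clonotypes out of frame or with a stop. TRAV3 lies higher in 13 of 13 samples for charge and for non-functional clonotypes, lower in 12 of 13 for short loops and higher in 12 of 13 for clonotype size.

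The largest TRAV3 clonotype of each time point is shown by its CDR3 nucleotide sequence, from the cysteine codon to the phenylalanine codon, because together they show how differently the expanded clonotypes were joined. Capitals mark inserted bases.

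1.5 months, TRAV3-3 TRAJ23: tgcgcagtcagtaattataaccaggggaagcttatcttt

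3 months, TRAV3-4 TRAJ15: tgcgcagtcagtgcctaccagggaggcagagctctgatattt

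5 months, TRAV3-3 TRAJ43: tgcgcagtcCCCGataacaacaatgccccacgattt

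7 months, TRAV3-1 TRAJ15: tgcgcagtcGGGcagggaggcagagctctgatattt

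The first held 9895 counts in 1.5 months replicate 1, or 1.79% of functional counts (95% Wilson interval 1.75% to 1.82%). The clonotype at 3 months held 5826 counts in replicate 4 (1.03%, 1.00% to 1.05%) and that at 5 months 4817 counts in replicate 1 (0.886%, 0.861% to 0.911%). The largest was the TRAV3-1 clonotype, with 11001 counts in 7 months replicate 3 (2.29%, 2.24% to 2.33%). The clonotypes at 1.5 and 3 months had 0 inserted bases, and those at 5 and 7 months had 4 and 3. Intervals cover counting error only, since PCR copies are not independent molecules. Each was dominant in a single sample. The clonotypes at 1.5, 3 and 5 months had at most 45, 12 and 1 counts in any other sample, each being found in 2 of them. These counts are for the listed V gene. The CDR3 sequences of the clonotypes at 1.5 and 3 months were also listed under another TRAV3 gene. The TRAV3-1 clonotype had 0 counts in the other 12 samples. By counting error alone this allows at most 0.000340% to 0.000629% of functional counts depending on the sample, a limit that ignores PCR copies.

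Most TRAV3 clonotypes were private to a sample. Of 3694 nucleotide clonotypes (the same V gene, J gene and CDR3 sequence), 3188 (86.3%) occurred in 1 sample, 506 in 2 or more and 5 in 7 or more, and among other families 88.0% occurred in 1 sample. At the amino-acid level 717 of 2844 sequences (25.2%) occurred in 2 or more samples, 25 in 7 or more and 0 in all 13, against 24.6%, 561 and 17 of the 46721 sequences of other families. These counts over the series were not tested. In the tests of sharing below, a clonotype or sequence found in 2 samples raises the value of both. The 13 per-sample differences are therefore not fully independent, which limits what p says for sharing. A nucleotide clonotype of TRAV3 was found again in another sample in 27.1% ± 4.63 (SD, n = 13) of cases against 24.3% ± 4.25 for the others, higher in 10 of 13 samples (adjusted p = 0.0212, exact sign-flip permutation test). This difference of 2.79 percentage points was 0.64 when the V family replaced the V gene in the definition (adjusted p = 0.493), and 0.65 when a clonotype was dropped wherever another sample held it at 100 times its share or more (adjusted p = 0.463, exact sign-flip permutation test). Among clonotypes of at least 2 counts it was 0.59 (adjusted p = 0.545) and of at least 10 counts 0.20 (adjusted p = 0.807, exact sign-flip permutation test). It was 1.93 (adjusted p = 0.171, exact sign-flip permutation test) without 1.5 months replicate 2, 2.36 (0.0864) without 5 months replicate 2, 2.40 (0.0674) without 7 months replicate 1, 2.58 (0.0469) without 5 months replicate 1 and 2.65 (0.0439) without 3 months replicate 4. For amino-acid sequences the values were 48.5% ± 3.46 and 49.1% ± 3.44 (adjusted p = 0.493), and sequences encoded by 2 or more nucleotide sequences in a sample made up 5.53% ± 1.52 and 6.30% ± 0.81 (adjusted p = 0.213, exact sign-flip permutation test). The latter difference was -1.42 percentage points with 1-base neighbours removed (adjusted p = 0.00146, exact sign-flip permutation test). The amino-acid sharing difference of -0.52 passed among clonotypes of at least 2 counts (-2.81, adjusted p = 0.0198) and of at least 10 counts (-3.35, adjusted p = 0.00293, exact sign-flip permutation test). It was -0.86 without 3 months replicate 4 (adjusted p = 0.284, exact sign-flip permutation test) -0.31 without 5 months replicate 1 (adjusted p = 0.682) and -1.62 without 3 months replicate 3 (adjusted p = 0.0447), the only sample whose removal brought it past the threshold.

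The 5 TRAV3 amino-acid sequences present in the most samples are shown by their most widespread nucleotide sequence, since they are what recurs between samples.

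Shared sequence 1, TRAJ22: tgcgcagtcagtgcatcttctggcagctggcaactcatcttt

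Shared sequence 2, TRAJ13: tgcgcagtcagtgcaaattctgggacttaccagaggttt

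Shared sequence 3, TRAJ13: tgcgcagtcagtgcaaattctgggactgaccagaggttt

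Shared sequence 4, TRAJ23: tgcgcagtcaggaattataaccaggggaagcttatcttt

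Shared sequence 5, TRAJ37: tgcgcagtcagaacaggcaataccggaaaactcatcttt

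All 5 had 0 inserted bases. The first 3 were found in 12 of 13 samples and the other two in 11. Each was small, with mean shares of functional counts of 0.0421%, 0.0186%, 0.00351%, 0.0381% and 0.0298%. The first was highest in 5 months replicate 2 at 0.149% and the fourth in 7 months replicate 3 at 0.145%. Across the 25 sequences found in 7 or more samples, 69.1% of entries had 0 inserted bases and the mean was 0.625 inserted bases, against 22.8% and 2.69 for sequences found in 1 sample, and these 25 sequences held 8.81% of TRAV3 counts on average. The sequence encoded in the most ways had 7 nucleotide sequences with TRAJ23 and was found in 10 samples, and its most widespread form is shown for its single inserted base.

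Most convergent sequence, TRAJ23: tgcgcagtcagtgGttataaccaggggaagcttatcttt

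As shown, shared sequences 2 and 3 differ by the substitution T28G (base 28 of the CDR3, counted from the first base of the cysteine codon). Both amino-acid sequences were present in the same 12 samples. In each, sequence 3 (G) held 13.3% to 31.6% (median 19.8%) of the counts of sequence 2 (T). These counts pool the 3 nucleotide sequences of each and the TRAV3 genes it was listed under. The same pair of TRAJ13 endings recurred across the family. Of 205 TRAV3 entries with TRAJ13, 88 (42.9%) carried the G ending, and 83 of these had a partner with the T ending, the same V gene and the same remaining bases in the same sample, the partner being larger in 82. Their median count was 19.2% of the partner's. With other V families 1335 of 3083 TRAJ13 entries (43.3%) carried the G ending, with a median of 17.6%. Of all TRAV3 entries, 432 (9.89%) differed by 1 base from a clonotype of the same sample, V gene, J gene and length with at least 4 times its counts, against 9.04% for other families. Whether such pairs are separate T cell clones was not tested.

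TRAV3 had many non-functional rearrangements. Of 5864 TRAV3 entries of any kind, 1495 (25.5%) were not functional, 1452 of them out of frame. Per sample the share was 25.6% ± 2.77 (SD, n = 13) against 12.2% ± 0.62 for other families, higher in 13 of 13 samples, a measure added after the values were seen (p = 0.000244, exact sign-flip permutation test). It was the highest share among the 12 families with at least 50 clonotypes in every sample, but smaller families were higher, among them TRAV11 at 39.97%, TRAV1 at 39.3% and TRAV15 at 30.8%. Within the family it was 29.4% for TRAV3D-3, 23.1% for TRAV3-3, 16.4% for TRAV3-1 and 16.1% for TRAV3-4. The median count of a non-functional TRAV3 clonotype was 35 against 65 for a functional clonotype, and in other families 15 against 54.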

How the data were processed

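TCRα transcripts of 13 samples of sorted rescued Treg cells were amplified by 5′RACE and sequenced. The authors assigned V and J genes and assembled clonotypes with MiXCR, then used VDJtools to discard the smaller of near-identical clonotypes by their size ratio, a step that bears on the 1-base neighbours described here, and to filter non-functional clonotypes; the deposited tables still hold non-functional entries. The labels name GRCm38. The deposited tables give a count per clonotype (whether of reads or of molecules is not given in the sources used here), its fraction of the sample, which the authors computed from these counts, and the last V and first J base in the CDR3. Counts were used as deposited, and the fraction column was not used in tests. Total counts per sample were 509818 to 936831.

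Functional entries were those whose CDR3 holds letters only; shares were taken over functional TRAV entries. Inserted bases are those between the last V base and the first J base. V family, V gene and J gene clonotype counts were tested with edgeR 4.0.16 (quasi-likelihood, TMM, filterByExpr, Benjamini-Hochberg), with DESeq2 1.42.0 as an alternative. TRAV3 and other clonotypes of the same sample were compared by two-sided exact sign-flip permutation tests over 8192 sign patterns, time points by exact permutation, and trends by 100000 permutations. Tests were also run on simulated data with independent samples. For V families and genes these held larger changes than TRAV3 showed between time points. That run therefore does not show how the tests perform at the changes and spread found here. Named were all TRAV3 genes, up to 5 J genes called in each direction with the largest fold change, the 5 J genes with most TRAV3 clonotypes, the largest clonotype of each time point, the 5 amino-acid sequences in most samples and the sequence with most nucleotide forms. Gene coordinates and germline ends are from GENCODE for GRCm38. The members and lists were chosen with earlier results of these data known. Replicate numbers repeat across time points. Between same-numbered samples the correlation of V family shares was over 0.1 in 4 of 14 pairs (mean -0.09, range -0.54 to 0.35). For J gene shares of TRAV3 clonotypes it was over 0.1 in 5 of 14 (mean 0.016, range -0.23 to 0.20). So few correlations cannot decide whether same-numbered samples are related.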

Additional observations from a re-analysis of the deposited data

Results flagged for a closer look

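Of 80 groups of values checked for a sample far from the rest of its group, 4 had one, where chance gives about 1 in 20. In 7 months replicate 1 the share of TRAV3 clonotypes with 0 inserted bases was 8.02 percentage points below that of other families (-8.02), while the other samples of the group lay between -0.49 and 2.38. In 7 months replicate 3 the share with 16 residues or more was 2.00 percentage points above other families (2.005), against -1.90 to -1.09 in the rest of the group. In 7 months replicate 2 the net charge difference was 0.0294, against 0.208 to 0.256 in the rest, and without the first 4 residues it was -0.0953, against 0.0479 to 0.0727.

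The share of amino-acid sequences with 2 or more nucleotide forms was compared between TRAV3 and other families. TRAV3 minus other was negative in both samples at 1.5 months (mean -2.06 percentage points) and positive in both at 5 months (mean 0.43). Both signs occurred at 3 months (-4.51 to 2.30) and at 7 months (-2.22 to 0.76). The difference between the time points was not tested.

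Non-functional rearrangements, which the comparisons of functional clonotypes leave out, made up 25.6% of TRAV3 entries per sample on average against 12.2% in other families. They held 17.4% ± 4.14 (SD, n = 13) of TRAV3 counts against 6.03% ± 0.56.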

How the results depend on the processing

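Of 403 values under alternatives other than leaving out a sample, 353 kept their direction and their side of the threshold. Leaving out each sample in turn, 733 of 793 did so; with 1 sample left at 1.5 or 5 months, that sample is assumed to vary like the other groups. For the values below the cause was not tested. The values of J use, net charge, clonotype size and TRAV3-4 against TRAV3-1 kept their direction under each alternative run.

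With at least 2 counts per clonotype, TRAV3 minus other families was 0.59 for shared nucleotide clonotypes, -2.81 for shared amino-acid sequences (now passing), -2.34 for middle J genes, 0.0595 residues for length (now passing), 0.0249 for the hydrophobic pair and 0.00900 for V bases kept. For differences from 1.5 months, p is adjusted here for 3 comparisons, and over all 9 none passed with all clonotypes counted. Mean numbers of functional clonotypes of all V families were also lower at each later time. With at least 2 counts the number of TRAV3 clonotypes differed by -71.75 at 3 months (p = 0.0140, exact permutation test), -126 at 5 months (p = 0.000577) and -100.5 at 7 months (p = 0.000888). The family's log2 fold change between 7 and 3 months was then -0.011. With at least 10 counts these were 0.20, -3.35, -1.94, 0.0704 and, for V bases, 0.0291, and -66.25 for the number at 3 months (p = 0.00573, exact permutation test), -114.5 at 5 months (p = 0.000259) and -91.2 at 7 months (p = 0.000363). Weighted by counts, the differences were 0.0894 for inserted bases, -0.34 for 0 inserted bases, 0.38 for 6 or more inserted bases, 0.10 for V bases, 0.59 for 16 residues or more, -1.43 for 11 residues or fewer, -1.79 for middle and 2.86 for 3′ J genes, and none passed. With non-functional clonotypes kept, 5′ J genes differed by -1.98 (passing). Removing 1-base neighbours of larger clonotypes, a choice made after seeing the data, gave 0.0597 for length and -1.42 for sequences with 2 or more nucleotide forms (both passing), -100.8 for the number at 7 months (p = 0.0526 against 0.0365, exact permutation test) and a trend of length of 0.0126. The added definition by V family gave 0.64 for shared nucleotide clonotypes and the removal of clonotypes 100 times more abundant elsewhere 0.65. Removal of the largest clonotype of each side gave 0.34 for clonotypes above 0.1%, but by construction it lowers the smaller TRAV3 set more. Summed counts in place of clonotype numbers called 1 J gene higher and 1 lower.

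With replicate numbers as a block, a pairing the labels do not give, the number of clonotypes differed by -142 at 5 months (p = 0.125, permutation test) and -119 at 7 months (p = 0.206), and the share of counts at 3 months by -1.58 (p = 0.0512); other calls were unchanged by the block. With only the 2 groups compared the number differed by -142 at 5 months (p = 0.333, exact permutation test, the smallest that 2 samples against 2 allow) and by -113.4 at 7 months (p = 0.0476), and the share at 3 months by -1.51 (p = 0.133). On a log2 scale the number at 7 months differed by -0.45 and the inverse Simpson index by 0.24 at 3 and 0.32 at 5 months.

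Leaving out 1 sample at a time, the ranges were -0.12 to 0.0047 for the family's log2 fold change at 5 months, 3 to 5 J genes higher (3 without 1.5 months replicate 2, 5 months replicate 1 or 7 months replicate 4), 0.0424 to 0.0669 for length, 1.08 to 2.24 for 0 inserted bases, -0.96 to -0.58 for 16 residues or more, -1.82 to -1.05 for 5′ and -3.11 to -2.24 for middle J genes, 1.93 to 3.07 for shared nucleotide clonotypes and -1.62 to -0.10 for shared amino-acid sequences (passing without 3 months replicate 3). Against 1.5 months they were -139 to -33 clonotypes at 3 months, -195 to -89 at 5 months and -166.4 to -60.4 at 7 months, -2.22 to -0.80 percentage points of counts at 3 months, -1.85 to -0.43 at 5 and -0.88 to 0.53 at 7 months, and for the inverse Simpson index -58.1 to 50.9, -57.3 to 51.6 and -86.3 to 22.6. Trends ranged from -0.20 to 0.15 for the share of clonotypes, -0.38 to 0.0438 for length and -0.41 to 0.0357 for sharing. The number of TRAV3-4 clonotypes, 10 to 18 per sample, limits what can be said of that gene.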
